A study of Mus musculus with 39 samples.

Results

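Genes for glutathione metabolism and for the enzymes that remove superoxide and peroxides were followed in mouse brown fat across genotype and housing temperature. The genes were chosen by name: glutathione S-transferases (Gst and Mgst genes), glutathione peroxidases (Gpx), peroxiredoxins (Prdx), superoxide dismutases (Sod), thioredoxin reductases (Txnrd), and Cat, Gclc, Gclm, Gsr, Gss, Nqo1, Hmox1, Txn1 and Txn2. Of the 24116 gene entries in the deposited table, 56 matched by name, and 47 of these had a mean of at least 10 normalised counts over the 16 libraries. The other 9 were Gpx2, Gpx2-ps1, Gpx5, Gpx6, Gsta1, Gsta2, Gstm3, Gstp3 and Prdx6b, of which Gstp3 had the highest mean, 6.34, and Gpx2, Gpx5 and Gpx6 were listed at 0 in every library. The 47 genes are called the enzyme genes here.

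RNA came from interscapular brown adipose tissue of male mice on standard chow. All mice carried floxed Bcl6 alleles (BCL6-floxed, C57BL/6J), and Bcl6 encodes a transcriptional repressor. The 4 groups were UCP1Cre mice at 30 °C, Cre-negative mice at 30 °C, UCP1Cre mice at 22 °C and Cre-negative mice at 22 °C, with 4 libraries in each and no age given in the labels. In UCP1Cre mice the recombinase is driven by the promoter of Ucp1, the uncoupling protein of brown adipocytes, so other cell types of the depot are not its intended target. The Cre-negative mice are the controls, and they carry the floxed alleles too. Nothing in the labels ties the 4 libraries to 4 different mice, and p-values here measure only the spread between these samples, which may be technical.

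Glutathione is a small thiol made by glutamate-cysteine ligase (Gclc and Gclm) and glutathione synthetase (Gss) and kept reduced by glutathione reductase (Gsr) with NADPH. Glutathione peroxidases spend it on hydrogen peroxide and lipid peroxides, and glutathione transferases join it to reactive compounds. Thioredoxins, their reductases and the peroxiredoxins form a parallel system, while superoxide dismutases turn superoxide into hydrogen peroxide that catalase breaks down in peroxisomes. In brown adipocytes, which are packed with mitochondria and burn fat for heat, these enzymes sit beside a respiratory chain that leaks superoxide. Many of the genes, Nqo1, Gclm and Hmox1 among them, are known targets of the transcription factor NRF2.

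Values are estimated counts that the authors normalised between libraries, so 1 gene can be compared across libraries but levels of different genes cannot be set against each other. Differences were tested as means of log2(value + 1) with limma over all 13176 genes with a mean of at least 10, with Benjamini-Hochberg adjustment over all of them, and "rose", "fell" and "called" mean a limma adjusted p under 0.05. Fold changes are on that scale too. Library totals ran from 8867620 to 13516900 normalised counts. Bcl6 was higher in the Cre-labelled libraries, against the direction of the label, at 30 °C (log2 difference 1.32, limma adjusted p = 0.00438) and at 22 °C (1.70, limma adjusted p = 8.25e-04). The labels do not name the part of Bcl6 that Cre removes, so this neither checks nor refutes the label, and the libraries are called Cre-labelled throughout. Every direction given below for Cre rests on that label. Cre-labelled 22 °C library 2 and control 22 °C library 1 stood apart, with 15226 and 14311 genes above 0, the fewest, where the highest count was 16849. Several enzyme genes and the sum of 7 red cell markers were highest in them, and calls that changed when both were left out are given with and without them. Both are 22 °C libraries, so leaving them out does not change a difference between the 30 °C groups. There it changes only the spread that the fit shares over the 4 groups, and so the p-value.

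Most of the enzyme genes that responded to housing temperature fell in the warm. At 30 °C against 22 °C in Cre-labelled libraries, 23 of the 47 were called, 7 higher and 16 lower, which is 48.9% against 32.7% of all genes tested. In controls 26 were called, 5 higher and 21 lower, which is 55.3% against a background of 45.5%. The background for lower calls was 17.7% in Cre-labelled libraries and 22.7% in controls, and that for higher calls was 15% and 22.9%. The median log2 difference of the 47 genes was -0.19 in Cre-labelled libraries and -0.33 in controls, where the medians of all genes tested were 0.02 and 0.04. Of the called genes, 12 fell in both: Cat, Gpx4, Gpx8, Gsta4, Gstm4, Gstz1, Mgst1, Prdx3, Sod1, Sod2, Sod3 and Txn2. Gstm2, Gstm6, Gstt3, Gstt4 and Nqo1 rose in both.

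These splits depend on the scaling. The enzyme genes together made up 1.18 ± 0.12% of the library total in Cre-labelled and 1.39 ± 0.06% in control libraries at 30 °C. At 22 °C they made up 1.13 ± 0.13 and 1.29 ± 0.23% (SD, n = 4 each), so their summed share was not lower in the warm. With library totals made equal, the median of all genes moved to 0.31 in Cre-labelled libraries and 0.43 in controls, and the calls became 11 higher and 10 lower in Cre-labelled libraries and 11 higher and 8 lower in controls. With quantile normalisation there were 7 higher and 13 lower in Cre-labelled libraries and 5 higher and 13 lower in controls. Relative to the median of all genes, 32 of the 47 lay below it in Cre-labelled libraries and 34 in controls under both the deposited scaling and equal totals, and 29 and 30 with quantile normalisation. Without the libraries that stood apart, 27 were called in Cre-labelled libraries, 7 higher and 20 lower, and 28 in controls, 8 higher and 20 lower, against backgrounds of 33.2 and 48.8%.

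Cre labels went with fewer changes. At 30 °C, 11 of the 47 genes were called against controls, 5 higher and 6 lower, which is 23.4% against 12.5% of all genes tested. At 22 °C, 8 were called, 2 higher and 6 lower, which is 17.0% against a background of 10.2%. The background for higher calls was 5.65% at 30 °C and 5.51% at 22 °C, and for lower calls 6.85 and 4.69%. With equal totals the split was 7 higher and 5 lower at 30 °C and 4 and 4 at 22 °C, and with quantile normalisation it was 7 and 7 at 30 °C and 1 and 4 at 22 °C. Without the libraries that stood apart the counts were 20 at 30 °C, 9 higher and 11 lower, and 15 at 22 °C, 4 higher and 11 lower, where the backgrounds were 21.2 and 17.8%. The differences at 30 °C did not change, since the libraries left out are 22 °C ones and enter there only through the shared spread. Gpx1, Gstt1, Mgst3 and Txn1 (higher) and Gpx3, Prdx3, Prdx5, Txn2 and Txnrd2 (lower) were the additions at 30 °C. At 22 °C they were Gstp2, Gstt3 and Mgst3 (higher) and Gclm, Gpx3, Prdx1, Prdx3 and Txn2 (lower), while Gsta3 was lost. The comparisons share groups, each group entering a genotype and a temperature comparison, so calls in 2 of them are not independent. Groups that did not overlap were seen for 22 of the 47 genes with Cre at 30 °C and 10 at 22 °C, against 22.9 and 12.4% of all genes, and for 24 between temperatures in Cre-labelled libraries and 22 in controls, against 34.5 and 41.2%. Across the 4 comparisons 36 of the 47 genes were called at least once, and Gclc, Gpx3, Gstm1, Gstm5, Gstp2, Mgst2, Mgst3, Prdx2, Prdx4, Txn1 and Txnrd1 in none with all libraries.

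**Figure D1:**
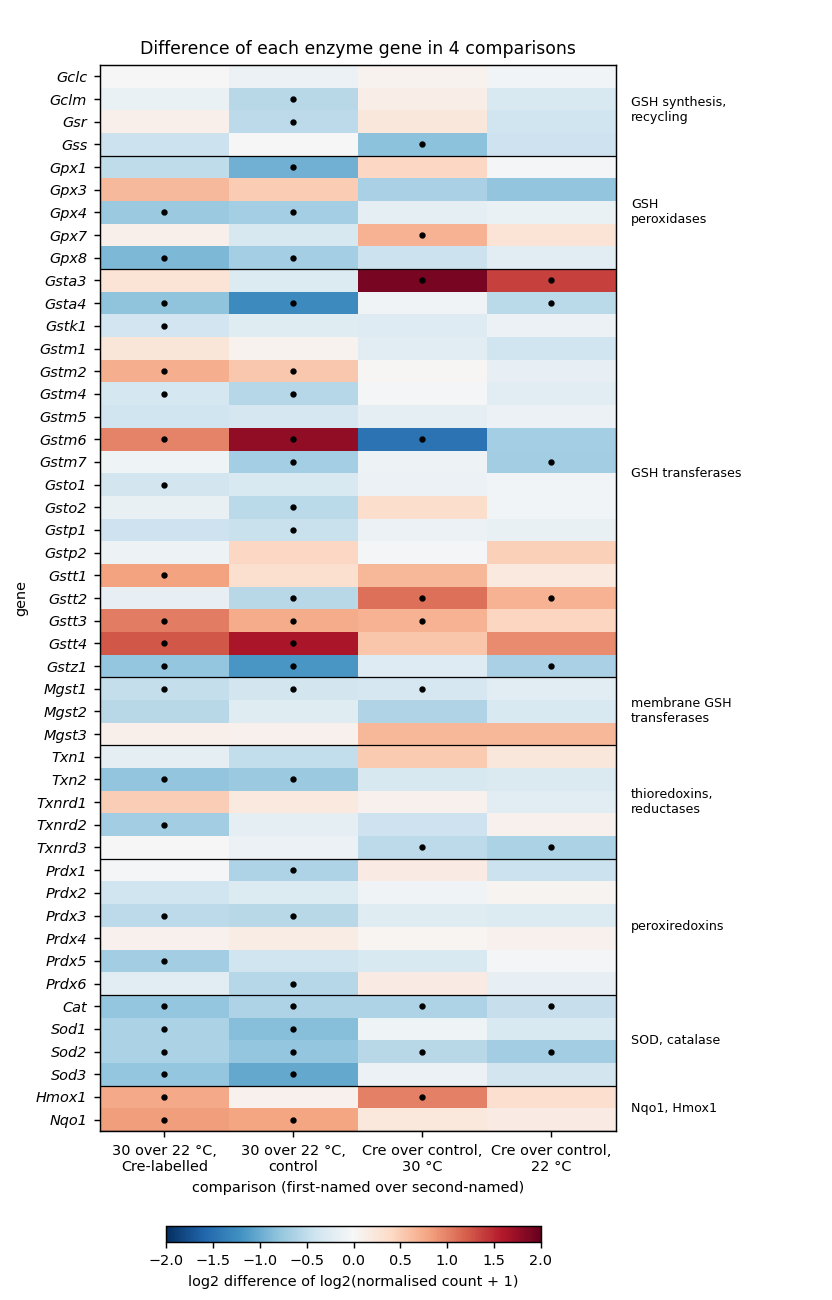
Log2 difference of log2(normalised count + 1) for each of the 47 enzyme genes (rows, grouped by role) in 4 comparisons (columns), in red where the first-named group is higher and in blue where it is lower, with black dots for a limma adjusted p under 0.05. The 4 superoxide dismutase and catalase genes are blue with a dot in both temperature columns, and Gsta3 and Gstt2 are red with a dot in both Cre columns.

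Superoxide dismutases and catalase were the one role in which every gene fell in the warm, 4 of 4 in Cre-labelled libraries and 4 of 4 in controls. Of all genes, 17.7 and 22.7% fell. Cat and Sod2 were the 2 enzyme genes called in all 4 comparisons, lower each time. Catalase is the peroxisomal enzyme that splits hydrogen peroxide. Cat read 4419, 4625, 4271 and 4375 in the Cre-labelled and 6796, 7416, 6216 and 6824 in the control libraries at 30 °C. At 22 °C it read 7172, 8184, 7032 and 8065 in the Cre-labelled and 10429.9, 10876, 10706 and 9744 in the control libraries. Each Cre-labelled group lay wholly under its controls, and each 30 °C group wholly under the 22 °C group of its genotype. Relative to controls Cat was 1.54-fold lower in Cre-labelled libraries at 30 °C (log2 difference of -0.62 with SE 0.09 and adjusted p = 3.39e-04 by limma) and 1.37-fold lower at 22 °C (log2 difference of -0.46 with SE 0.09 and adjusted p = 0.0048 by limma). Relative to 22 °C it was 1.72-fold lower at 30 °C in Cre-labelled libraries (log2 difference of -0.78 with SE 0.09 and adjusted p = 2.34e-05 by limma) and 1.53-fold lower in controls (log2 difference of -0.62 with SE 0.09 and adjusted p = 8.27e-05 by limma). With quantile normalisation the difference between temperatures in controls was -0.11 and that between genotypes at 22 °C -0.19, neither called.

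Sod2 encodes the manganese superoxide dismutase of the mitochondrial matrix. Sod2 read 4070.1, 4919, 4669 and 4737 in the Cre-labelled and 6429, 7035, 6429.5 and 7199 in the control libraries at 30 °C. At 22 °C it read 7099, 8496, 5897 and 7236 in the Cre-labelled and 12667, 11328, 11367 and 10790.4 in the control libraries. No Cre-labelled library reached the lowest control of its temperature. Sod2 was 1.47-fold lower in Cre-labelled libraries at 30 °C (log2 difference of -0.56 with SE 0.11 and adjusted p = 0.00376 by limma) and 1.62-fold lower at 22 °C (log2 difference of -0.69 with SE 0.11 and adjusted p = 9.45e-04 by limma). The warm groups were lower in Cre-labelled libraries (log2 difference of -0.63 with SE 0.11 and adjusted p = 5.34e-04 by limma) and in controls (log2 difference of -0.77 with SE 0.11 and adjusted p = 6.95e-05 by limma). These 4 calls held under every alternative tried, and without the libraries that stood apart the genotype differences were -0.56 (limma adjusted p = 4.97e-04) at 30 °C and -0.73 (limma adjusted p = 3.27e-04) at 22 °C.

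Sod1, the copper-zinc enzyme of the cytosol, and Sod3, the extracellular one, differed between temperatures. Sod1 read 4007, 4025, 4654 and 3260.3 in the Cre-labelled and 4043, 4229.6, 4692 and 3826 in the control libraries at 30 °C. At 22 °C Sod1 read 5757, 7572, 5492 and 5819 in the Cre-labelled and 10077, 6861, 7025 and 6571 in the control libraries. The highest 22 °C value of each genotype came from the library that stood apart, and the warm and cool groups did not overlap. Sod1 fell in Cre-labelled libraries (log2 difference of -0.63 with SE 0.15 and adjusted p = 0.00392 by limma) and in controls (log2 difference of -0.84 with SE 0.15 and adjusted p = 2.96e-04 by limma), and without those libraries by less: -0.52 (limma adjusted p = 0.00161) and -0.70 (limma adjusted p = 1.04e-04). Sod3 read 1037, 1185, 1217 and 1091 in the Cre-labelled and 1102, 1250.3, 1312 and 1262 in the control libraries at 30 °C. At 22 °C Sod3 read 2043, 1616, 1769.7 and 2367 in the Cre-labelled and 2281, 3248, 2541 and 2037 in the control libraries. The warm values lay close together and all under the cool ones. Sod3 was 1.71-fold lower at 30 °C in Cre-labelled libraries (log2 difference of -0.77 with SE 0.14 and adjusted p = 5.49e-04 by limma) and 2.02-fold lower in controls (log2 difference of -1.02 with SE 0.14 and adjusted p = 3.43e-05 by limma). Neither gene passed between genotypes.

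The RNA is from whole tissue, so fewer cells of a type and less RNA per cell cannot be told apart. The summed level of 22 brown adipocyte markers, all detected, moved the same way as Cat and Sod2: it ran from 73776 to 82719 in Cre-labelled and from 114145 to 126262 in control libraries at 30 °C, and from 145739 to 213025 and from 206636 to 286299 at 22 °C. Of these 22 genes, 9 fell and 0 rose with Cre at 30 °C, 6 fell and 0 rose at 22 °C, and 15 fell and 0 rose at 30 °C against 22 °C in each genotype. Positive differences, none called, numbered 4 and 3 with Cre at 30 and 22 °C, and 1 in each genotype between temperatures. Not every marker followed the sum: Adipoq at 30 °C ran from 12655 to 17054 in Cre-labelled and from 14285 to 15246 in control libraries. The part of brown adipocytes in the results was not tested.

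**Figure D2:**
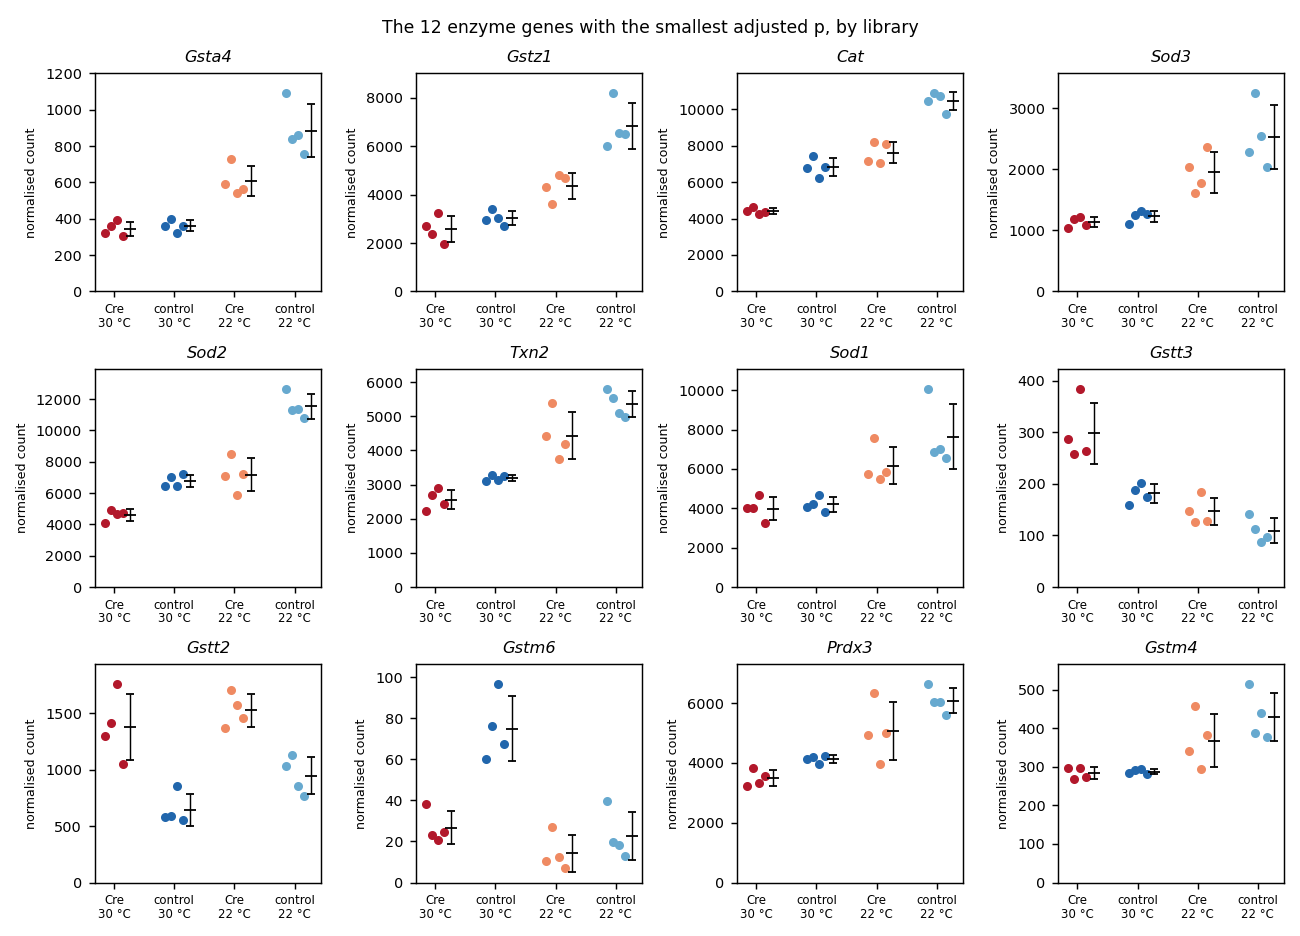
Normalised counts (vertical axes, from 0) in each library, for the 12 enzyme genes with the smallest adjusted p over the 4 comparisons, with 4 libraries per group as points and the mean ± SD beside them. For Cat and Sod2 the Cre-labelled points lie under their controls at both temperatures, while Gstt2 lies above its controls at both.

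Txn2 and Prdx3, of the mitochondrial thioredoxin and peroxiredoxin systems, fell in the warm in both genotypes. Txn2 is the mitochondrial thioredoxin. Txn2 read 2239, 2682, 2887 and 2425 in the Cre-labelled and 3105, 3272, 3127 and 3257 in the control libraries at 30 °C. At 22 °C it read 4411, 5395, 3743 and 4194 in the Cre-labelled and 5813, 5545, 5092 and 4990.4 in the control libraries. The temperatures did not overlap. Txn2 was 1.73-fold lower at 30 °C in Cre-labelled libraries (log2 difference of -0.79 with SE 0.11 and adjusted p = 9.63e-05 by limma) and 1.68-fold lower in controls (log2 difference of -0.75 with SE 0.11 and adjusted p = 8.49e-05 by limma). Between genotypes at 30 °C the groups did not overlap either, but the difference of -0.32 (limma adjusted p = 0.0699) did not pass unless the libraries that stood apart were left out (-0.32 with limma adjusted p = 0.0137). At 22 °C, where the groups overlapped, it was -0.28 (limma adjusted p = 0.123) with all libraries and -0.34 (limma adjusted p = 0.0264) without them.

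Prdx3, the mitochondrial peroxiredoxin that Txn2 keeps reduced, had a similar order. Prdx3 read 3221, 3839, 3334 and 3568 in the Cre-labelled and 4137, 4185, 3967 and 4239.6 in the control libraries at 30 °C. At 22 °C it read 4941, 6356, 3977 and 4998 in the Cre-labelled and 6636, 6039, 6046 and 5611 in the control libraries. Within each genotype the temperatures did not overlap, although Cre-labelled 22 °C library 3 lay among the warm controls. Prdx3 fell in Cre-labelled libraries (log2 difference of -0.52 with SE 0.12 and adjusted p = 0.0032 by limma) and in controls (log2 difference of -0.56 with SE 0.12 and adjusted p = 0.00141 by limma). The call in controls was lost with equal totals and with quantile normalisation (-0.16 and -0.15). Txnrd2, the mitochondrial reductase, averaged 626 ± 18.4 in Cre-labelled libraries at 30 °C and 1034 ± 223 at 22 °C (SD, n = 4 each), and fell there (log2 difference of -0.70 with SE 0.16 and adjusted p = 0.0026 by limma), while the difference in controls was -0.20 (limma adjusted p = 0.301). The difference between these 2 temperature effects was -0.50 (limma adjusted p = 0.437). With Cre at 30 °C, Txnrd2 differed by -0.42 (limma adjusted p = 0.0898), and by -0.42 (limma adjusted p = 0.00528) without the libraries that stood apart. Those are 22 °C libraries, so only the shared spread changed.

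The remaining thioredoxin genes behaved otherwise. Txnrd3, a thioredoxin-glutathione reductase, fell with Cre at 30 °C (log2 difference of -0.52 with SE 0.16 and adjusted p = 0.0456 by limma) and at 22 °C (log2 difference of -0.64 with SE 0.16 and adjusted p = 0.0204 by limma), with mean levels of 197 ± 24.8 in Cre-labelled and 284 ± 47.9 in control libraries at 30 °C and 199 ± 39.4 and 308 ± 46.8 at 22 °C (SD, n = 4 each). The first call was lost under 11 of 24 alternatives and the second under 4 of 24. Txn1, the cytosolic thioredoxin, did not pass in any comparison with all libraries. Txn1 read 1977, 2126, 2202 and 2038 in the Cre-labelled and 1426, 1372, 1549 and 1468 in the control libraries at 30 °C. These 30 °C groups did not overlap, and the difference was 0.52 (limma adjusted p = 0.185) with all libraries and 0.52 (limma adjusted p = 0.0058) without those that stood apart. Txnrd1, the cytosolic reductase, was not called either, with 0.49 (limma adjusted p = 0.0823) in Cre-labelled libraries and 0.19 (limma adjusted p = 0.47) in controls between temperatures.

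Of the 6 peroxiredoxins, 2 fell in the warm in Cre-labelled libraries (Prdx3 and Prdx5) and 3 in controls (Prdx1, Prdx3 and Prdx6). All 3 calls in controls were lost with equal totals and with quantile normalisation, and the Prdx5 call was lost with equal totals. The called shares, 33.3 and 50%, were close to those of all genes, 32.7 and 45.5%, of which 17.7 and 22.7% were lower calls. With all libraries no peroxiredoxin passed between genotypes, where the smallest adjusted p at 30 °C was that of Prdx3 (-0.25 with limma adjusted p = 0.206) and at 22 °C that of Prdx1 (-0.42 with limma adjusted p = 0.131). Without the libraries that stood apart, Prdx3 and Prdx5 fell with Cre at 30 °C (-0.25 with limma adjusted p = 0.0494 and -0.31 with limma adjusted p = 0.0338), and Prdx1 and Prdx3 fell at 22 °C (-0.46 with limma adjusted p = 0.00852 and -0.35 with limma adjusted p = 0.0221). Prdx1 is the cytosolic enzyme. Prdx1 read 5428, 4632, 4034 and 5237 in the Cre-labelled and 4539.8, 4346, 4278 and 3959 in the control libraries at 30 °C. At 22 °C it read 4437, 7155, 4097 and 4348 in the Cre-labelled and 8917, 5731, 6248 and 5749 in the control libraries. All 4 cool controls lay above the warm controls, while in Cre-labelled libraries the temperatures overlapped. Prdx1 had a log2 difference of -0.02 (limma adjusted p = 0.935) in Cre-labelled libraries and fell in controls (log2 difference of -0.61 with SE 0.17 and adjusted p = 0.00866 by limma). The difference between these effects, 0.59, did not pass (limma adjusted p = 0.393), but without the libraries that stood apart it was 0.63 (limma adjusted p = 0.0388), the 1 enzyme gene called for interaction under any alternative tried, where 1.37% of all genes were called. Prdx5, found in mitochondria and peroxisomes, fell in Cre-labelled libraries (-0.70 with limma adjusted p = 0.0144), and Prdx6, a peroxiredoxin that can use glutathione, fell in controls (-0.56 with limma adjusted p = 0.00457). Prdx2, of the cytosol, and Prdx4, of the endoplasmic reticulum, were called nowhere with all libraries.

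Among the 5 glutathione peroxidases, 2 fell in the warm in Cre-labelled libraries (Gpx4 and Gpx8) and 3 in controls (Gpx1, Gpx4 and Gpx8). These are 40 and 60% called, against 32.7 and 45.5% of all genes. Gpx8, bound to the endoplasmic reticulum, averaged 892 ± 222 at 30 °C and 1641 ± 245 at 22 °C in Cre-labelled libraries (SD, n = 4 each) and fell there (log2 difference of -0.90 with SE 0.20 and adjusted p = 0.00291 by limma) and in controls (-0.69 with limma adjusted p = 0.0116). Gpx1, the common cytosolic enzyme, read 2881, 2946, 3231 and 2825 at 30 °C and 9641, 4842, 4914 and 4938 at 22 °C in controls. Its first 22 °C library was far above the other cool controls, and all 4 cool values lay above the warm ones. Gpx1 fell in controls by 0.97 on the log2 scale (limma adjusted p = 0.00216), and by 0.72 without the libraries that stood apart (limma adjusted p = 7.45e-05). In Cre-labelled libraries the difference was -0.51 (limma adjusted p = 0.0857) with all libraries and -0.29 (limma adjusted p = 0.0408) without those. With Cre at 30 °C, Gpx1 differed by 0.42 (limma adjusted p = 0.251), and by 0.42 (limma adjusted p = 0.00719) without them. Gpx4, which reduces lipid peroxides in membranes, fell in Cre-labelled libraries (-0.74 with limma adjusted p = 0.0328) and in controls (-0.69 with limma adjusted p = 0.0358), and each call was lost under 8 of 24 alternatives.

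Gpx7, a peroxidase of the endoplasmic reticulum, was the 1 glutathione peroxidase called between genotypes with all libraries. It read 149, 109, 129 and 117 in Cre-labelled and 83.0, 67.7, 76.5 and 79.5 in control libraries at 30 °C. Every Cre-labelled value lay above the controls, 1.63-fold higher (log2 difference of 0.70 with SE 0.20 and adjusted p = 0.0323 by limma). Leaving out any of 7 single libraries lost that call, and the difference at 22 °C was 0.28 (limma adjusted p = 0.426). Gpx3, the secreted peroxidase of plasma, did not pass in any comparison with all libraries, and passed in all 4 without those that stood apart. It read 33575, 30892, 44582 and 24969.8 in Cre-labelled and 46529.7, 51519, 49433 and 58577 in control libraries at 30 °C. Those groups did not overlap, and the difference was -0.65 (limma adjusted p = 0.104) with all libraries and -0.65 (limma adjusted p = 0.0312) without those that stood apart. At 22 °C the 2 values were -0.79 (limma adjusted p = 0.0526) and -0.72 (limma adjusted p = 0.0419). Between temperatures they were 0.65 (limma adjusted p = 0.054) and 0.79 (limma adjusted p = 0.0105) in Cre-labelled libraries, and 0.51 (limma adjusted p = 0.106) and 0.72 (limma adjusted p = 0.0125) in controls.

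Of the 4 genes that make and recycle glutathione, Gss fell with Cre at 30 °C. Gss read 266, 317, 249 and 247 in the Cre-labelled and 526, 444, 466 and 475 in the control libraries at 30 °C. The groups were far apart, and Gss was 1.77-fold lower in Cre-labelled libraries (log2 difference of -0.83 with SE 0.17 and adjusted p = 0.00438 by limma), a call that held under every alternative tried. At 22 °C it read 324, 392, 382 and 351 in the Cre-labelled and 722, 534, 352 and 394 in the control libraries. The groups overlapped there, with a log2 difference of -0.41 (limma adjusted p = 0.141). Between temperatures Gss differed by -0.43 (limma adjusted p = 0.066) in Cre-labelled libraries, the smallest adjusted p of the 4 genes, and by -0.01 (limma adjusted p = 0.963) in controls. Without the libraries that stood apart Gss fell in the warm in Cre-labelled libraries (-0.39 with limma adjusted p = 0.0373). The interaction for Gss was -0.42 (limma adjusted p = 0.599).

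Gclm and Gsr fell in the warm in controls. Gclm, the modifier subunit of the ligase that limits glutathione synthesis, read 282, 253, 226 and 225 at 30 °C and 316, 451, 368 and 332 at 22 °C, with every warm value under the cool ones (log2 difference of -0.56 with SE 0.14 and adjusted p = 0.00346 by limma). Gsr read 222, 188, 186 and 269.9 at 30 °C and 336, 308, 353 and 249 at 22 °C, where 1 warm library lay above 1 cool library (log2 difference of -0.53 with SE 0.13 and adjusted p = 0.00406 by limma). Both calls were lost with equal totals (-0.17 and -0.13). In Cre-labelled libraries the differences were -0.13 (limma adjusted p = 0.514) and 0.10 (limma adjusted p = 0.586). Between genotypes at 22 °C, Gsr had the smallest adjusted p of the role with all libraries, -0.40 (limma adjusted p = 0.0622), and Gclm differed by -0.30 (limma adjusted p = 0.177). Without the libraries that stood apart Gclm fell (-0.47 with limma adjusted p = 0.0265) and Gsr did not pass (-0.39 with limma adjusted p = 0.0798). Gclc, the catalytic subunit, was called nowhere, with log2 differences from -0.11 to 0.07 over the 4 comparisons.

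The 18 soluble glutathione transferases moved in both directions. At 30 °C against 22 °C, 5 rose and 5 fell in Cre-labelled libraries, and 4 rose and 7 fell in controls. These are 55.6 and 61.1% called, against 32.7 and 45.5% of all genes. With Cre, 3 rose and 1 fell at 30 °C, and 2 rose and 3 fell at 22 °C, or 22.2 and 27.8% against 12.5 and 10.2%. Members of a class have similar sequences, and the authors' counting could divide reads between them, so values of single Gsta, Gstm, Gstp and Gstt genes are uncertain to that degree. Between temperatures in controls, gene neighbours were called in both directions. Gstt1, Gstt2, Gstt3 and Gstt4 lie within 63.3 kb of chromosome 10 (chr10:75774117-75837419 in mm10), and there Gstt3 and Gstt4 rose while Gstt2 fell. The 6 Gstm genes lie within 149 kb of chromosome 3 (chr3:107895854-108045179), and there Gstm2 and Gstm6 rose while Gstm4 and Gstm7 fell. The falls of Gstt2, Gstm4 and Gstm7 were not called with equal totals. With Cre at 30 °C the log2 differences of Gstt1, Gstt2, Gstt3 and Gstt4 were all positive (0.67, 1.10, 0.70 and 0.56). At 22 °C, without the libraries that stood apart, they were positive too (0.35, 0.70, 0.62 and 0.90).

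Gsta4, an alpha-class enzyme known for conjugating 4-hydroxynonenal, a product of lipid peroxidation, had the smallest adjusted p of all. Gsta4 read 324, 358, 393 and 306 in the Cre-labelled and 361, 399.8, 323 and 362 in the control libraries at 30 °C. At 22 °C it read 590.0, 726, 543 and 565 in the Cre-labelled and 1091, 837, 859 and 754 in the control libraries. Warm values were alike in both genotypes, and cool values were lower in Cre-labelled libraries than in controls without overlap. Gsta4 was 1.75-fold lower at 30 °C in Cre-labelled libraries (log2 difference of -0.81 with SE 0.13 and adjusted p = 2.08e-04 by limma) and 2.43-fold lower in controls (log2 difference of -1.28 with SE 0.13 and adjusted p = 1.87e-06 by limma). Between genotypes it fell at 22 °C (log2 difference of -0.54 with SE 0.13 and adjusted p = 0.0124 by limma), where the fit of only these 2 groups lost the call, and differed by -0.07 (limma adjusted p = 0.792) at 30 °C. The interaction, 0.47, did not pass (limma adjusted p = 0.338).

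Gstz1, which is also the maleylacetoacetate isomerase of tyrosine breakdown, followed the same order. Gstz1 read 2703, 2387, 3255 and 1954 in the Cre-labelled and 2969.7, 3405, 3037 and 2701 in the control libraries at 30 °C. At 22 °C it read 4294, 3614, 4813 and 4692 in the Cre-labelled and 6009, 8186, 6551 and 6488 in the control libraries. The 3 gaps were those of Gsta4: warm under cool in either genotype, and Cre-labelled under control at 22 °C. Gstz1 was 1.71-fold lower at 30 °C in Cre-labelled libraries (log2 difference of -0.77 with SE 0.15 and adjusted p = 8.36e-04 by limma) and 2.24-fold lower in controls (log2 difference of -1.16 with SE 0.15 and adjusted p = 1.84e-05 by limma). At 22 °C it fell with Cre (log2 difference of -0.64 with SE 0.15 and adjusted p = 0.0103 by limma), a call lost with quantile normalisation and with equal totals (-0.39 and -0.47). Gstm7 fell with Cre at 22 °C too, with mean levels of 101 ± 28.0 in Cre-labelled and 163 ± 39.6 in control libraries (SD, n = 4 each; log2 difference of -0.69 with SE 0.19 and adjusted p = 0.0277 by limma), a call lost under 4 of 24 alternatives, and in the warm in controls (-0.68 with limma adjusted p = 0.00812).

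Of the theta class, Gstt2 rose with Cre at both temperatures and Gstt3 at 30 °C. Gstt2 read 1299, 1414, 1760.1 and 1048 in the Cre-labelled and 577, 593, 856 and 552 in the control libraries at 30 °C. At 22 °C Gstt2 read 1370.4, 1712, 1573 and 1462 in the Cre-labelled and 1038, 1128, 856 and 768 in the control libraries. At both temperatures every Cre-labelled value lay above every control. Gstt2 was 2.14-fold higher in Cre-labelled libraries at 30 °C (log2 difference of 1.10 with SE 0.17 and adjusted p = 3.99e-04 by limma) and 1.63-fold higher at 22 °C (log2 difference of 0.70 with SE 0.17 and adjusted p = 0.0135 by limma), and both calls held under every alternative tried. Gstt2 fell in the warm in controls (-0.56 with limma adjusted p = 0.0122), not past with equal totals or quantile normalisation (-0.17 and -0.40).

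Gstt3 rose both in the warm and with Cre. Gstt3 read 287, 258, 385 and 265 in the Cre-labelled and 159, 189, 202 and 175 in the control libraries at 30 °C. At 22 °C it read 147, 127, 184 and 129 in the Cre-labelled and 141, 112, 87.2 and 97.7 in the control libraries. Each warm group lay above the cool group of its genotype, and the genotypes were apart at 30 °C but overlapped at 22 °C. Gstt3 was 2.02-fold higher at 30 °C in Cre-labelled libraries (log2 difference of 1.02 with SE 0.17 and adjusted p = 3.28e-04 by limma) and 1.67-fold higher in controls (log2 difference of 0.74 with SE 0.17 and adjusted p = 0.00228 by limma), and 1.63-fold higher with Cre at 30 °C (log2 difference of 0.70 with SE 0.17 and adjusted p = 0.0119 by limma). At 22 °C the genotype difference was 0.43 (limma adjusted p = 0.123) with all libraries and 0.62 (limma adjusted p = 0.023) without those that stood apart. Gstt1 rose in the warm in Cre-labelled libraries (0.80 with limma adjusted p = 0.00968). In controls it differed by 0.33 (limma adjusted p = 0.229) with all libraries and 0.60 (limma adjusted p = 0.00202) without those that stood apart, and with Cre at 30 °C by 0.67 (limma adjusted p = 0.0539) and 0.67 (limma adjusted p = 0.0019). Gstt4, with group means of 4.92 to 26.3, rose in both genotypes (1.24 with limma adjusted p = 0.017 and 1.63 with limma adjusted p = 0.00231).

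Gsta3, an alpha-class enzyme known in mice for detoxifying aflatoxin, had the largest log2 difference of the 47 genes between genotypes at each temperature. Gsta3 read 154, 167, 497 and 113 in the Cre-labelled and 61.7, 59.3, 84.7 and 22.2 in the control libraries at 30 °C. At 22 °C it read 178, 159.8, 161 and 147 in the Cre-labelled and 58.9, 88.4, 50.4 and 56.4 in the control libraries. Cre-labelled values lay above the controls at both temperatures, and Cre-labelled 30 °C library 3 was far above all others. Gsta3 was 3.75-fold higher in Cre-labelled libraries at 30 °C (log2 difference of 1.91 with SE 0.40 and adjusted p = 0.00448 by limma) and 2.57-fold higher at 22 °C (log2 difference of 1.36 with SE 0.40 and adjusted p = 0.0385 by limma). The 22 °C call was lost under 9 of 24 alternatives, among them without the libraries that stood apart (1.34 with limma adjusted p = 0.0721).

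Gstm6, a mu-class gene, was highest in warm controls. Gstm6 read 38.3, 23.3, 20.5 and 24.7 in the Cre-labelled and 60.0, 76.0, 96.6 and 67.3 in the control libraries at 30 °C. At 22 °C it read 10.6, 27.1, 12.2 and 6.84 in the Cre-labelled and 39.5, 19.7, 18.5 and 12.9 in the control libraries. The 4 warm controls lay above all 12 other libraries. Gstm6 was 2.77-fold lower in Cre-labelled libraries at 30 °C (log2 difference of -1.47 with SE 0.37 and adjusted p = 0.0149 by limma) and in controls 3.43-fold higher in the warm (log2 difference of 1.78 with SE 0.37 and adjusted p = 0.00112 by limma). In Cre-labelled libraries it rose in the warm by less (0.99 with limma adjusted p = 0.049), a call lost under 17 of 23 alternatives, and the interaction of -0.79 (limma adjusted p = 0.659) did not pass. Gstm2 rose in the warm in Cre-labelled libraries (0.73 with limma adjusted p = 0.00271) and in controls (0.54 with limma adjusted p = 0.0124).

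Gstm4, also of the mu class, fell in the warm. Gstm4 read 298, 268, 298 and 273 in the Cre-labelled and 284, 293, 293 and 281 in the control libraries at 30 °C. At 22 °C it read 340.4, 457, 295 and 382 in the Cre-labelled and 515, 388, 441 and 376 in the control libraries. Warm values hardly spread, and in Cre-labelled libraries 1 cool value lay among them. Gstm4 fell in Cre-labelled libraries (log2 difference of -0.36 with SE 0.13 and adjusted p = 0.0411 by limma), a call lost under 14 of 24 alternatives and without the libraries that stood apart (-0.25 with limma adjusted p = 0.0641), and in controls (log2 difference of -0.57 with SE 0.13 and adjusted p = 0.00203 by limma). Between temperatures, Gstk1 and Gsto1 fell past the threshold in Cre-labelled libraries (-0.38 with limma adjusted p = 0.0182 and -0.37 with limma adjusted p = 0.0453), and Gstp1 and Gsto2 in controls (-0.45 with limma adjusted p = 0.0258 and -0.55 with limma adjusted p = 0.0354). The interaction did not pass for any of these 4, and the Gsto1 call was lost under 16 of 24 alternatives. Without the libraries that stood apart the Gsto2 call was lost (-0.42 with limma adjusted p = 0.0923), and Gstm5 and Gstp1 fell in the warm in Cre-labelled libraries (-0.28 with limma adjusted p = 0.0421 and -0.29 with limma adjusted p = 0.0297). Gstp2 then rose with Cre at 22 °C (0.79 with limma adjusted p = 0.0213) and in the warm in controls (0.68 with limma adjusted p = 0.0119).

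Of the 3 membrane-bound transferases, Mgst1, an enzyme of the endoplasmic reticulum and outer mitochondrial membrane, fell in 3 comparisons. It averaged 4543 ± 221 in Cre-labelled and 5738 ± 310.0 in control libraries at 30 °C, and 6343 ± 655 and 7453 ± 820.4 at 22 °C (SD, n = 4 each). The differences were -0.34 (limma adjusted p = 0.0417) with Cre at 30 °C, -0.48 (limma adjusted p = 0.00224) at 30 °C against 22 °C in Cre-labelled libraries and -0.37 (limma adjusted p = 0.00819) in controls, the last turning to 0.076 with quantile normalisation and 0.023 with equal totals. Mgst3 did not pass with all libraries (0.67 with limma adjusted p = 0.0759 with Cre at 30 °C and 0.66 with limma adjusted p = 0.0872 at 22 °C), and without those that stood apart it rose with Cre at 30 °C (0.67 with limma adjusted p = 0.00315) and at 22 °C (0.75 with limma adjusted p = 0.00498), and in the warm in controls (0.37 with limma adjusted p = 0.0473). Mgst2 was called nowhere.

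Hmox1 and Nqo1 are genes that many cells induce under oxidative stress, and both rose in the warm in Cre-labelled libraries, while Hmox1 alone of the pair was called with Cre. Hmox1 encodes heme oxygenase 1, which breaks down heme and is abundant in macrophages that clear red cells. Hmox1 read 422, 354, 314 and 595 in the Cre-labelled and 229, 198, 201 and 186 in the control libraries at 30 °C. At 22 °C it read 207, 194, 301 and 275 in the Cre-labelled and 146, 216, 215 and 194 in the control libraries. The 4 Cre-labelled 30 °C libraries were above all 12 others. Hmox1 was 2.01-fold higher in Cre-labelled libraries at 30 °C (log2 difference of 1.01 with SE 0.19 and adjusted p = 0.0023 by limma) and 1.7-fold higher there than in Cre-labelled libraries at 22 °C (log2 difference of 0.77 with SE 0.19 and adjusted p = 0.00557 by limma). The genotype difference at 22 °C was 0.33 (limma adjusted p = 0.292), and the interaction, 0.67, did not pass (limma adjusted p = 0.373).

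Macrophage markers were also highest in the group in which Hmox1 was highest. The summed level of 20 such genes, 18 of them kept, ran from 7275 to 18930 in Cre-labelled and from 4238 to 5328 in control libraries at 30 °C, and from 2584 to 3655 and from 1506 to 2528 at 22 °C. Among the 20, 1 was at 0 in every library. Of the 18, 14 rose and 0 fell with Cre at 30 °C, and 9 rose and 1 fell at 22 °C, where 5.65 and 5.51% of all genes rose. In the warm, 17 rose in Cre-labelled libraries and 16 in controls, and 0 fell, where 15 and 22.9% of all genes rose. The part of these cells in the Hmox1 result was not tested. Nqo1, the NADPH-dependent quinone reductase, averaged 47.0 ± 7.78 in Cre-labelled and 42.3 ± 17.1 in control libraries at 30 °C, and 26.5 ± 7.95 and 23.3 ± 5.56 at 22 °C (SD, n = 4 each). It rose in the warm in Cre-labelled libraries (0.84 with limma adjusted p = 0.0359) and in controls (0.79 with limma adjusted p = 0.0373), and did not pass between genotypes. Each call was lost under 9 of 23 alternatives, among them without the libraries that stood apart (0.62 with limma adjusted p = 0.0807 in Cre-labelled libraries and 0.62 with limma adjusted p = 0.0634 in controls).

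**Figure D3:**
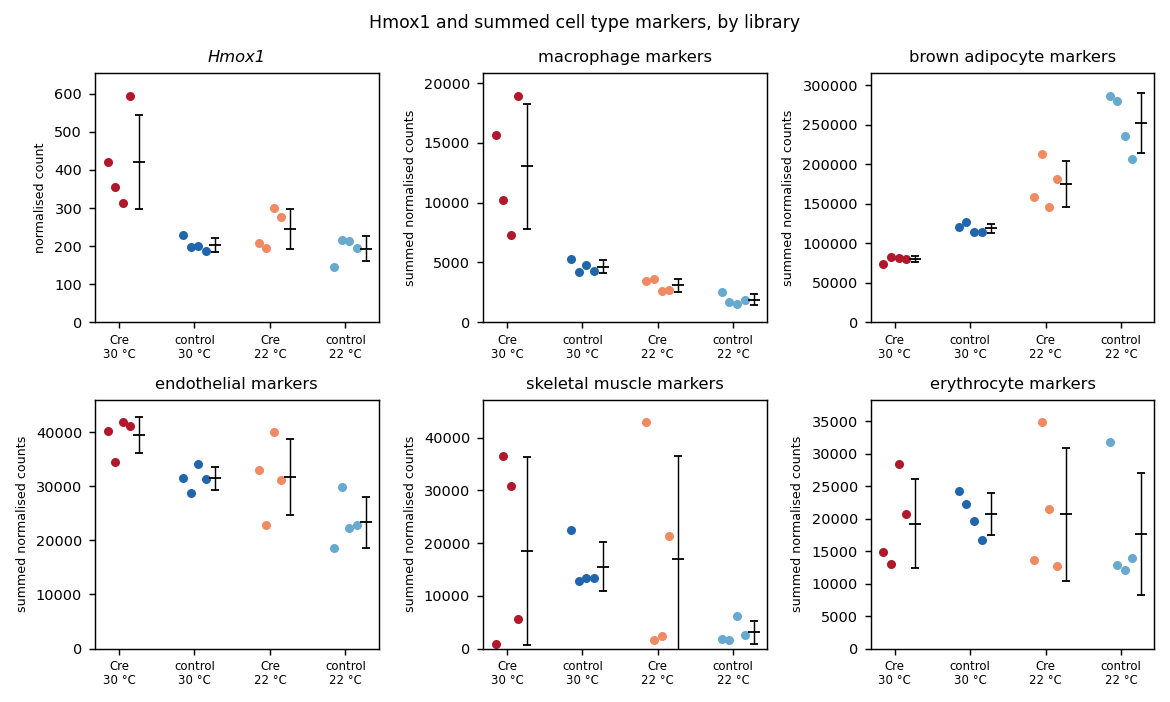
Hmox1 (normalised counts) and the summed normalised counts of 5 lists of cell type markers (vertical axes, from 0) in each library, with 4 libraries per group as points and the mean ± SD beside them. Hmox1 and the macrophage sum are highest in the 4 Cre-labelled 30 °C libraries, the brown adipocyte sum is lowest there, and the muscle sum varies between 945 and 36574 within that group.

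Other marker lists moved as well. Of 14 endothelial markers, 4 rose and 0 fell with Cre at 30 °C, and 6 rose and 0 fell at 22 °C, with sums of 34486 to 41824 in Cre-labelled and 28756 to 34060 in control libraries at 30 °C. In the warm, 5 of the 14 rose in Cre-labelled libraries and 7 in controls, and 0 fell. Of all genes, 5.65 and 5.51% rose with Cre at 30 and 22 °C, and 15 and 22.9% in the warm. Of 22 muscle markers, 0 were called in the warm in Cre-labelled libraries, and 11 rose and 0 fell in controls. Of 5 red cell markers kept, 1 rose in the warm in each genotype. Muscle marker sums ran from 945 to 36574 in Cre-labelled libraries at 30 °C and from 1575 to 42946 at 22 °C, against 12834 to 22545 and 1619 to 6265 in controls. The part of any of these in the enzyme results was not tested.

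No enzyme gene passed the test of whether the genotype effect differed between temperatures (0 of 47 with limma, against 0.44% of all genes, 0.175% higher and 0.266% lower). At an unadjusted p under 0.05 there were 7, against 10.5% of all genes: Gclm, Gsr, Gsta4, Gstm7, Hmox1, Prdx1 and Txnrd2. The smallest p was that of Gsr, 0.00354 (limma adjusted p = 0.195), with an interaction of 0.63. The 47 interactions ranged from -0.79 to 0.67 with a median of 0.13, where all genes had -0.01.

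**Figure D4:**
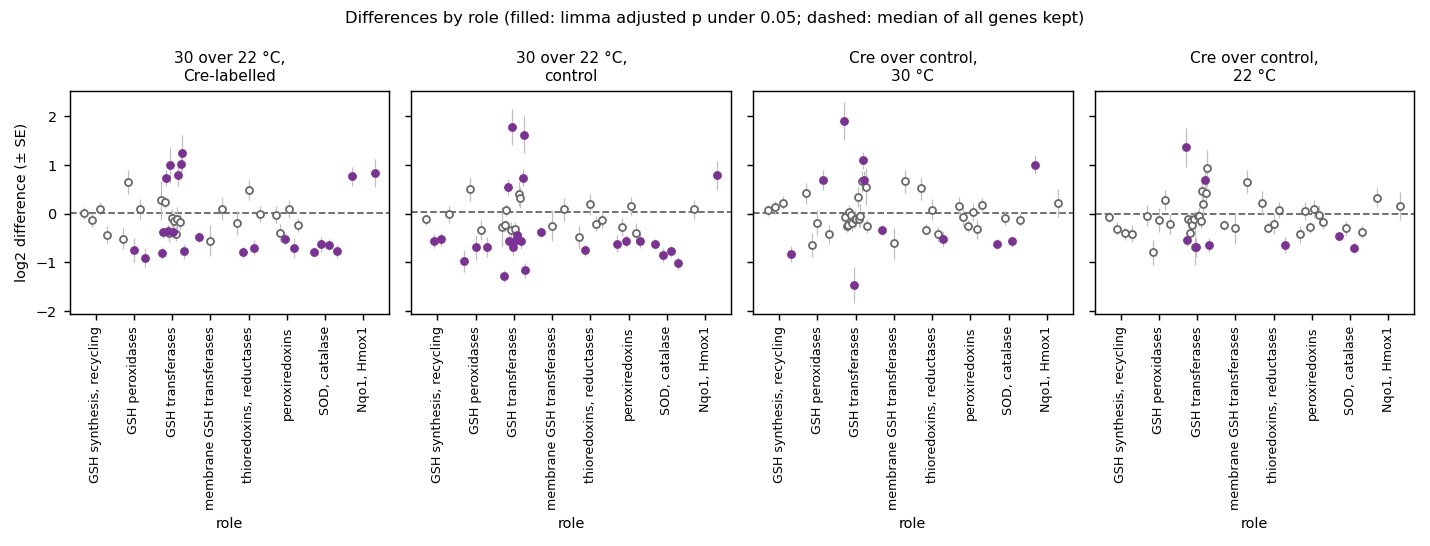
Log2 differences ± SE (vertical axis) of the 47 enzyme genes by role (horizontal axis) in 4 comparisons, filled where the limma adjusted p is under 0.05, with the median of all genes tested as a dashed line. Most filled points in the 2 temperature panels lie below the line, and the peroxiredoxins have no filled point in the 2 Cre panels.

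Several enzyme genes were highest in the 2 libraries with the fewest genes above 0. In Cre-labelled 22 °C library 2 and control 22 °C library 1, Prdx2 read 5858 and 5820, where the other 22 °C libraries ran from 3354 to 3636 and from 3149 to 3520. Prdx5 read 7157 and 6838, against 3628 to 4034 and 3871 to 4219. Sod1, Prdx1, Gpx1, Gpx4 and Txn1 had their highest values of the 16 in 1 or other of the same libraries. The sum of 7 red cell markers was highest there too, 34889 and 31757, against 12062 to 28412 in the other 14 libraries, although as a share of the library total Cre-labelled 30 °C library 3 stood above both (0.300%, against 0.271 and 0.235%). The part of red cell RNA or of library quality in those values was not tested, and without both libraries the temperature effect on Prdx2 was -0.21 (limma adjusted p = 0.0408) in Cre-labelled libraries and -0.07 (limma adjusted p = 0.43) in controls.

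**Figure D5:**
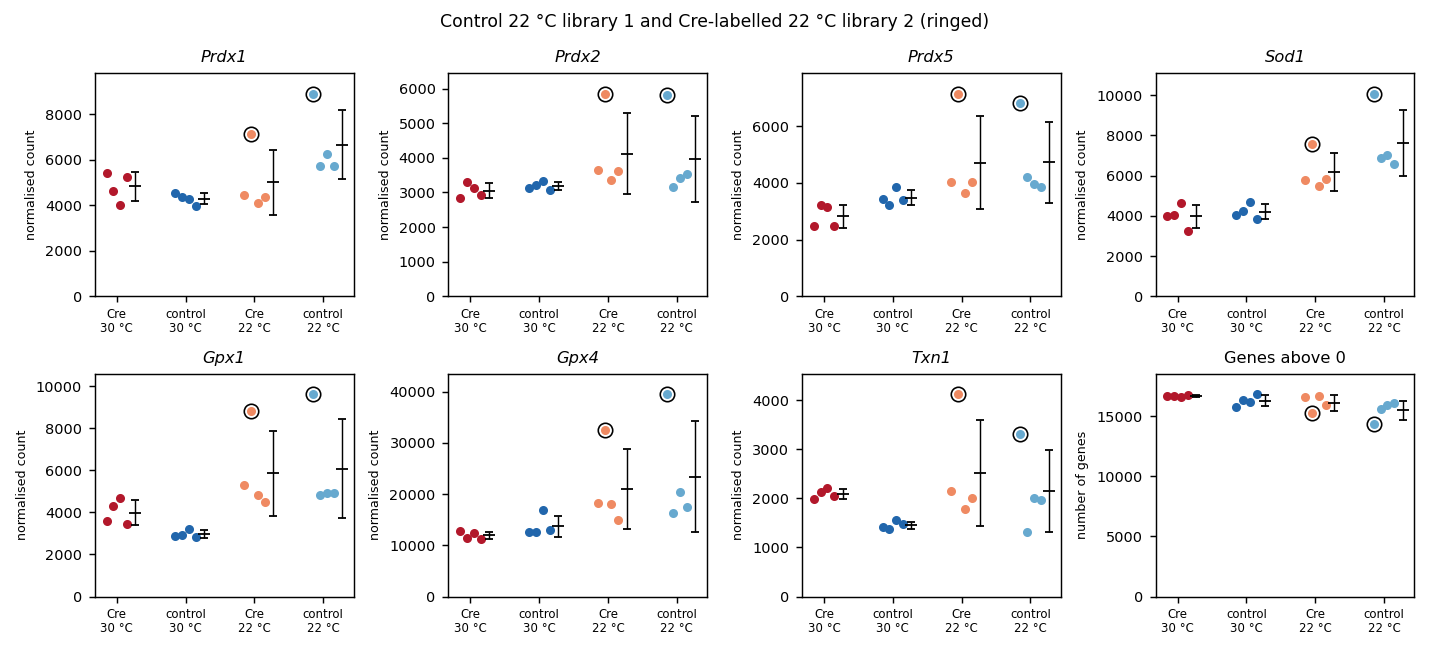
Normalised counts of 7 enzyme genes and the number of genes above 0 (vertical axes, from 0) in each library, with 4 libraries per group as points, the mean ± SD beside them, and rings around Cre-labelled 22 °C library 2 and control 22 °C library 1. The ringed points are the highest of their groups for the 7 genes and the lowest of their groups for genes above 0.

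Many of the enzymes that supply NADPH, on which both reduction systems draw, fell in the warm with the deposited scaling. Of 16 such genes outside the 47, 9 fell and 0 rose at 30 °C in Cre-labelled libraries, and 10 fell and 1 rose in controls. Of all genes, 17.7 and 22.7% fell there, and with Cre 6.85% fell at 30 °C and 4.69% at 22 °C. No other scaling was tried for any list outside the 47 genes. Taldo1 and G6pdx, of the pentose phosphate pathway, and Nadk, a kinase that makes NADP, led in Cre-labelled libraries (-1.06 with limma adjusted p = 8.23e-05, -0.85 with limma adjusted p = 5.49e-04 and -0.56 with limma adjusted p = 1.18e-04). Nadk, Taldo1 and Pgd, also of that pathway, led in controls (-0.84 with limma adjusted p = 1.63e-06, -1.39 with limma adjusted p = 3.70e-06 and -1.52 with limma adjusted p = 3.12e-05). With Cre, 4 fell and 1 rose at 30 °C, and 7 fell and 1 rose at 22 °C, led after Nnt by Nadk2 at both (-0.58 with limma adjusted p = 0.00521 and -0.81 with limma adjusted p = 4.99e-04), then by Me3 at 30 °C (-1.02 with limma adjusted p = 0.0103) and Taldo1 at 22 °C (-0.72 with limma adjusted p = 0.00528).

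The gene that rose in 3 of the comparisons was Nnt, the mitochondrial transhydrogenase that makes NADPH from NADH. Nnt read 119, 127, 141 and 125 in Cre-labelled and 82.4, 82.0, 59.9 and 53.9 in control libraries at 30 °C. At 22 °C it read 116, 118, 109 and 129 in the Cre-labelled and 35.2, 45.2, 34.2 and 39.2 in the control libraries. All 8 Cre-labelled libraries lay above all 8 controls, and warm controls lay above cool ones. Nnt rose with Cre at 30 °C (log2 difference of 0.89 with SE 0.16 and adjusted p = 0.00137 by limma) and at 22 °C (log2 difference of 1.60 with SE 0.16 and adjusted p = 6.21e-06 by limma), and in the warm in controls (log2 difference of 0.82 with SE 0.16 and adjusted p = 5.89e-04 by limma). C57BL/6J mice, the strain in the labels, are known for a deletion within Nnt, and the labels give no Nnt genotype.

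Peroxisome biogenesis genes build the organelle that holds catalase, and none of the 20 rose in the warm. There, 14 fell in Cre-labelled libraries and 13 in controls, where 17.7 and 22.7% of all genes fell. Pex16, Pex14 and Abcd3 led both (-1.61 with limma adjusted p = 1.13e-06, -1.47 with limma adjusted p = 3.70e-07 and -1.57 with limma adjusted p = 4.43e-06 in Cre-labelled libraries, and -1.82 with limma adjusted p = 1.58e-07, -1.23 with limma adjusted p = 7.13e-07 and -1.65 with limma adjusted p = 9.69e-07 in controls). With Cre, 7 fell and 0 rose at 30 °C, led by Pex2, Pex14 and Pex11g (-1.29 with limma adjusted p = 0.00103, -0.53 with limma adjusted p = 0.00399 and -0.73 with limma adjusted p = 0.00532), and 5 fell and 0 rose at 22 °C, led by Pex3, Pex7 and Abcd3 (-0.77 with limma adjusted p = 6.11e-04, -0.56 with limma adjusted p = 0.00917 and -0.65 with limma adjusted p = 0.0122).

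Among 25 further genes of glutathione handling, 5 rose and 10 fell in the warm in Cre-labelled libraries, and 4 rose and 11 fell in controls. Of all genes, 15 and 22.9% rose and 17.7 and 22.7% fell. Oplah, the 5-oxoprolinase of the glutathione cycle, and Slc25a39, which carries glutathione into mitochondria, fell in Cre-labelled libraries (-1.15 with limma adjusted p = 4.45e-05 and -1.13 with limma adjusted p = 1.23e-05) and in controls (-1.24 with limma adjusted p = 1.11e-05 and -0.97 with limma adjusted p = 1.72e-05). With Cre, 2 rose and 1 fell at 30 °C, and 1 rose and 0 fell at 22 °C. Glutaredoxin 1, encoded by Glrx, read 229, 219, 199 and 271 in Cre-labelled and 145, 155, 119 and 152 in control libraries at 30 °C. At 22 °C it read 352, 541, 366 and 409 in the Cre-labelled and 218, 243, 181 and 179.8 in the control libraries. The genotypes did not overlap at either temperature (log2 difference of 0.68 with SE 0.15 and adjusted p = 0.00722 by limma at 30 °C; log2 difference of 1.01 with SE 0.15 and adjusted p = 4.25e-04 by limma at 22 °C). Hpgds, the glutathione-dependent prostaglandin D synthase of hematopoietic cells, rose with Cre at 30 °C (log2 difference of 1.72 with SE 0.29 and adjusted p = 0.00102 by limma), and macrophage markers rose there too; their part in this was not tested.

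Of 16 thioredoxin partners, Glrx among them, 2 rose and 7 fell in the warm in Cre-labelled libraries, 3 rose and 8 fell in controls, and with Cre 1 rose and 2 fell at each temperature. Msrb2, a mitochondrial methionine sulfoxide reductase, fell in all 4 (-0.53 with limma adjusted p = 0.00241 and -0.53 with limma adjusted p = 0.00299 with Cre at 30 and 22 °C; -1.36 with limma adjusted p = 3.70e-07 and -1.37 with limma adjusted p = 1.57e-07 at 30 °C in Cre-labelled libraries and in controls). Srxn1, which repairs overoxidised peroxiredoxins, fell in the warm in controls (-0.85 with limma adjusted p = 7.19e-05). Among 10 regulators of the NRF2 pathway, 2 rose and 0 fell with Cre at 30 °C, none was called at 22 °C, 2 rose and 2 fell in the warm in Cre-labelled libraries, and 2 rose and 1 fell in controls. Keap1, the inhibitor of NRF2, fell in Cre-labelled libraries (-0.35 with limma adjusted p = 0.0104), Maff rose there (1.70 with limma adjusted p = 2.20e-04), and Nfe2l2, which encodes NRF2, fell in controls (-0.39 with limma adjusted p = 0.00935).

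Selenium supply and heme handling were represented by small lists. Of 11 genes of selenoprotein synthesis, 1 rose and 0 fell with Cre at each temperature. That gene was Selenop, the selenium carrier, which read 12589.8, 14582, 13139 and 13892 in Cre-labelled and 8363, 8999, 7782 and 7984 in control libraries at 30 °C. The groups did not overlap there or at 22 °C (log2 difference of 0.71 with SE 0.12 and adjusted p = 0.00102 by limma at 30 °C; log2 difference of 0.86 with SE 0.12 and adjusted p = 2.58e-04 by limma at 22 °C). In the warm, 1 rose and 2 fell in Cre-labelled libraries, and 1 rose and 4 fell in controls. Of 11 other selenoproteins, 0 were called with Cre at 30 °C and 1 fell at 22 °C, 1 rose and 1 fell in the warm in Cre-labelled libraries, and 2 rose and 4 fell in controls, with Dio2, the deiodinase of activated brown fat, at -3.63 (limma adjusted p = 2.69e-04) and -4.73 (limma adjusted p = 1.65e-05). Of 9 genes of iron and heme handling, 1 rose and 3 fell with Cre at 30 °C, 1 fell at 22 °C, and 1 rose and 3 fell in the warm in each genotype. Hp, the hemoglobin-binding haptoglobin, fell with Cre at both temperatures (-1.21 with limma adjusted p = 5.09e-04 and -1.28 with limma adjusted p = 3.68e-04). These lists were read beside backgrounds of 12.5 and 10.2% called with Cre and of 32.7 and 45.5% with temperature in Cre-labelled libraries and controls.

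A BCL6 ChIP-seq peak assigned to the gene lay within 10 kb of the annotated start of 5 of the 47 enzyme genes, 10.6%, against 7.75% of all genes tested. Each peak is assigned to 1 gene, so a peak assigned to a neighbouring gene was not counted. The authors' list holds 3022 peaks from 1 control brown fat sample at 30 °C, without replicates. Scores as deposited ran from 4.11 to 170, with a median of 5.18. The labels do not state the scale of these scores. Prdx3 had a peak 300 bases upstream (chr19:60874748-60874928 in mm10, annotated as promoter, score 4.65), and Txnrd1 had one 90 bases downstream of a start (chr10:82859206-82859386, promoter, score 4.65). Gclm had one 125 bases downstream (chr3:122245592-122245772, in the 5′ UTR, score 4.11), Prdx6 one 308 bases downstream (chr1:161250812-161250992, in intron 1, score 5.54) and Hmox1 one 3935 bases upstream (chr8:75089593-75089773, intergenic, score 4.83). Only the Prdx6 peak lay above the median score. Of these 5, Hmox1 rose with Cre at 30 °C, and Gclm, Prdx3, Prdx6 and Txnrd1 did not pass there.

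The sequence just before the start is shown for Gclm, Prdx3 and Txnrd1, the enzyme genes with a peak at or beside the promoter for which RefSeq (GRCm38.p6, the build named mm10) gave one. For Gclm and Txnrd1 the capitals mark the core of the antioxidant response element bound by NRF2, TGACNNNGC, here on the opposite strand and so read as its reverse complement. For Prdx3 the capitals mark the 41 bases that lie within the peak.
Gclm, chr3:122245307-122245556, plus strand: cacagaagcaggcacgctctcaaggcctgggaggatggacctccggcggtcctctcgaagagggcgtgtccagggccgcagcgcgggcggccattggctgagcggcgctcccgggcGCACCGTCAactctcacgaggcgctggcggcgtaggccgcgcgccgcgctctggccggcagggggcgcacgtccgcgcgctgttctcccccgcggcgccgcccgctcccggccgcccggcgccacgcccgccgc
Prdx3, chr19:60874539-60874788, minus strand: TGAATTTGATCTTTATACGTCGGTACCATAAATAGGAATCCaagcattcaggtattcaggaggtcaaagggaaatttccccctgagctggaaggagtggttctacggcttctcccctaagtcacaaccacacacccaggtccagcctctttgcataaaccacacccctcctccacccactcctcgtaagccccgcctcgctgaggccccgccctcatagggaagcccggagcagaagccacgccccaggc
Txnrd1, chr10:82858956-82859205, plus strand: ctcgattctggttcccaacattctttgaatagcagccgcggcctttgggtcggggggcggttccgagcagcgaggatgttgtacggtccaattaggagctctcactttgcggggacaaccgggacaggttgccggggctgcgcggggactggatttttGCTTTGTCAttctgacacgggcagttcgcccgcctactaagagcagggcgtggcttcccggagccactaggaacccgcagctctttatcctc
The peak at Prdx3 thus reached the far end of the stretch shown, while those at Gclm and Txnrd1 began after it.

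Promoters, taken as 250 bases before to 50 after a start, were found for 40 of the 47 genes, 54 promoters in all. The core TGACNNNGC was searched on both strands and stood in 8 of them, 1 each for Gclm, Gsta3, Gstm5, Gstm7, Mgst1, Prdx1, Sod1 and Txnrd1, against 12.4% of all 32851 promoters. A BCL6 core, TTCCNNGAA, also on both strands, stood in 6, those of Gpx8, Gstm6, Mgst1, Sod2, Txn2 and Txnrd1, against 4.81% of promoters. In the enzyme genes no match of one motif overlapped a match of the other. A match describes letters and is not a site. Distances below are those of the motif base farthest before the start. For Prdx1, Sod1 and Gpx8, whose windows run on the strand opposite to the gene, that base is the last capital. Windows of 29 bases around the antioxidant core, in capitals, are shown for 4 genes called in at least 1 comparison:
Prdx1, chr4:116685456-116685484, minus strand, motif starting 133 bases before the start: ctacgggggaTGACTCAGCgctttccctg
Sod1, chr16:90220696-90220724, minus strand, motif starting 56 bases before the start: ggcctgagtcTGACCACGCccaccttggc
Gsta3, chr1:21240454-21240482, plus strand, motif starting 121 bases before the start: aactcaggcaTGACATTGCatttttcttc
Gstm7, chr3:107931725-107931753, minus strand, motif starting 129 bases before the start: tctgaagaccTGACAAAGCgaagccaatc
Of the 8 genes with this core, Gclm, Gstm7, Mgst1, Prdx1 and Sod1 fell in the warm in controls and none rose. In that comparison 44.7% of the 47 enzyme genes and 22.7% of all genes fell, and a link to the core was not tested. Only the Sod1 call was kept with equal totals. Gsta3 rose with Cre at both temperatures, while Mgst1 fell with Cre at 30 °C and Gstm7 at 22 °C. Windows around the BCL6 core, in capitals, are shown for the 4 genes with one that fell in the warm or with Cre and have no antioxidant core:
Sod2, chr17:13007644-13007672, plus strand, motif starting 185 bases before the start: tctccagggtTTCCCAGAAgcaggagtag
Txn2, chr15:77928993-77929021, minus strand, motif starting 17 bases before the start: cgcatagtctTTCCCGGAAatgacgctag
Gstm6, chr3:107943508-107943536, minus strand, motif starting 128 bases before the start: acaggcttggTTCCACGAAgaagattccc
Gpx8, chr13:113046492-113046520, plus strand, motif starting 122 bases before the start: aggaggacccTTCCCAGAAgaatcaaacg
None of these 4 had a BCL6 peak assigned to it within 10 kb of the start. Txn2 alone had one assigned farther away, 11670 bases downstream.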

How the data were processed

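RNA from 16 brown fat libraries was read as stranded polyA libraries with 75 cycles, per the labels' protocols. The authors deposited 1 signal value per gene and library: kallisto estimated counts normalised with DESeq2, on mm10, per the submitters' processing notes. Versions, annotation and filters: not given in the sources used. Reads could not be recovered, since 1.89 to 4.41% of values were whole multiples (tolerance 0.01) of the commonest low value, so raw depth is unknown. A change in total RNA between groups is divided out. The BCL6 peak score was deposited as HOMER printed it.

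Differences were fitted with limma 3.58.1 in R 4.3.3 (pseudocount 1, trend, prior degrees of freedom 4.83, residual 12, all 16 libraries, 1 mean per group), tested on simulated data. The 5 comparisons were adjusted over 13176 genes. Genes named in full are the 12 with the smallest adjusted p, with other called members and up to 3 genes of each further list. Hmox1, Gss, Gsta3, Prdx1, Gpx1, Gpx3, Gpx7, Txn1, Gclm and Gsr were given by library after their values were seen, as were Nnt, Glrx and Selenop. The enzyme genes and lists were chosen with earlier results of these data known. Promoters came from RefSeq GRCm38.p6. Alternatives covered the pseudocount, filter, scaling, samples fitted, replicate block and libraries left out. Other deposited ChIP samples were not analysed here.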

Additional observations from a re-analysis of the deposited data

Results flagged for a closer look

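In 25 of 208 groups of 4 libraries, 1 library lay far from the other 3 by Dixon's criterion, where chance alone would pick out about 5%. In control 22 °C library 1 this was so for 8 genes, all high: Gpx1 at 9641 normalised counts against 4842 to 4938 in the other 3, Gstm2 at 877 against 525 to 572, Gsto1 at 2270.3 against 1496 to 1569, Gstp2 at 365 against 161 to 183, Prdx1 at 8917 against 5731 to 6248, Prdx2 at 5819.5 against 3149 to 3519.9, Prdx5 at 6838 against 3871 to 4219, and Sod1 at 10077 against 6571 to 7025. Its sum of red cell markers, 31757 against 12062 to 13917 in the other 3, stood apart too.

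In Cre-labelled 22 °C library 2 it was so for 7 genes, all high: Gstp1 at 1739 against 1226 to 1313, Mgst3 at 1278 against 725 to 811, Prdx1 at 7155 against 4097 to 4437, Prdx2 at 5858 against 3354 to 3636, Prdx5 at 7157 against 3628 to 4034, Sod1 at 7572 against 5492 to 5819, and Txn1 at 4129 against 1783 to 2159. These 2 libraries, which had the fewest genes above 0, account for 16 of the 25.

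The other 9 fell elsewhere. In Cre-labelled 30 °C library 3, Gsta3 stood at 497 against 113 to 167 and Gstp1 at 1248 against 947 to 983. In Cre-labelled 30 °C library 4, Gstm5 stood low at 313 against 386 to 394. In control 30 °C library 3, Gpx4 stood at 16841 against 12501 to 12905 and Gstt2 at 856 against 552 to 593. Gstm7 stood at 112 against 94.0 to 96.8 in control 30 °C library 4 and at 222 against 142 to 146 in control 22 °C library 2. Gstt4 stood at 13.9 against 8.18 to 9.04 in Cre-labelled 22 °C library 3. Muscle markers in control 30 °C library 1 summed to 22545 against 12834 to 13470 in the other 3.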

How the results depend on the processing

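Of 68 calls of enzyme genes, 34 were kept under each of the 23 or 24 alternatives tried, 33 were lost under at least 1, and 1 was lost with a change of sign. That call was Mgst1 at 30 °C against 22 °C in controls. It was 0.076 with quantile normalisation (limma adjusted p = 0.497) and 0.023 with equal library totals (limma adjusted p = 0.827). The cause was not tested. Either scaling lost 21 more. Counts that moved by over 1.5 times were these. With Cre at 30 °C, 11 became 20 without the 2 libraries with fewest genes and 18 in a fit of only the groups compared. Neither change touches the 30 °C libraries, so the log2 differences stayed as they were and only the estimated spread, and with it the p-values, differed. With Cre at 22 °C, 8 became 15 without the 2 libraries, 4 in a fit of only the groups compared, and 5 with quantile normalisation. The interaction became 1 without the 2 libraries. Causes of the changes at 22 °C and in the interaction were not tested. Leaving out 1 library gave 8 to 15 with Cre at 30 °C, 5 (without Cre-labelled 22 °C library 1) to 14 (without library 2 of that group) at 22 °C, 17 to 29 for temperature in Cre-labelled libraries, 23 to 29 in controls, and 0 to 0 for the interaction. Bcl6 kept its call under each. Of the 5 genes with a peak, 1 remained when only peaks scoring above the median were used. Same-numbered libraries do not pair: over 24 pairs r ran from -0.48 to 0.24, and 4 of 16 libraries correlated best with their own number. With the replicate number as a block the counts were 9 and 9 with Cre at 30 and 22 °C, 21 and 26 for temperature in Cre-labelled libraries and controls, and 0 for the interaction. Raw depth is unknown, so no limit from depth is given.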
